A study of Mus musculus with 6 samples.

Results

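Ribosomes are built in the nucleolus from rRNA and ribosomal proteins, and the genes described here encode the machinery that makes and matures that rRNA. The list holds 40 mouse genes of the RNA polymerase I (Pol I) transcription apparatus and of ribosome assembly, found by their gene symbols among 54532 genes of the deposited table, and all 40 were present once and were expressed highly enough to be tested. They fell into 5 roles, with 12 genes of the Pol I machinery, 6 of nucleolar scaffold proteins and helicases, 6 of small nucleolar ribonucleoproteins (snoRNPs), 8 of small subunit assembly and 8 of large subunit assembly. The question was whether their RNA levels differed between leukemic bone marrow with and without Phf6, a gene whose product is a PHD-like zinc finger protein found in the nucleolus and nucleoplasm.

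Both groups were C57BL/6 mice that had received bone marrow cells depleted of lineage-positive cells and transduced with a retrovirus carrying JAK3 with the activating change M511I and GFP. Every library, the wild-type ones included, therefore carries the JAK3 transgene. In the Phf6 KO group (n = 3) the donor cells were Vav1-Cre;Phf6 fl/y, with Cre driven by the Vav1 promoter, which is active in hematopoietic cells. In the Phf6 WT group (n = 3) they were Phf6 fl/y without Cre, so that Cre itself was absent from the controls. Bone marrow was taken on day 100 after transplantation, and the labels do not say whether GFP-positive cells were sorted, so host cells may be included. Nothing in the labels says whether replicates came from separate mice, and p-values then measure only the spread between these libraries. The numbers of the genotype labels run on from Phf6 to Phf8 within each group, while the design text names Phf6 alone. Libraries are named by group and replicate (WT 1, KO 1 and so on).

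Pol I transcribes one template, the repeated rDNA genes. UBTF shapes rDNA chromatin, the SL1 complex of TBP and the TAF1 subunits marks the promoter, and RRN3 brings an initiation-competent polymerase to it. The long precursor is modified by snoRNPs, which use guide RNAs to methylate or pseudouridylate chosen bases, and is cut and folded within the small subunit processome and the large subunit precursors. Many of these genes are textbook targets of Myc, and their output is tied to cell growth and division. The measurements here are mRNA levels, so neither rRNA synthesis nor ribosome number was measured.

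Values are FPKM (fragment counts scaled to gene length and library size), which were tested on the scale log2(FPKM + 1). Gene lengths are those of the deposited table used for that scaling, and not the spans between the printed coordinates. A gene was called where limma's adjusted p was under 0.05. The read totals recovered from the table ranged from 13015823 to 18235095 a library. WT 2 stood apart from the other libraries before any comparison was made. Its correlation of log2 values with WT 1 and WT 3 was 0.779 and 0.746, against 0.948 between WT 1 and WT 3, and 0.963 to 0.973 among the KO libraries. Ribosomal protein genes took 24.9% of its reads and 5.75% to 7.88% elsewhere, and genes of 8000 bases or more took 6.74%, against 22.9% to 26.5%. Results are therefore given with and without it. Phf6 itself was measured at 7.47, 3.67 and 8.02 FPKM in WT 1 to WT 3 and at 6.73, 5.50 and 5.11 in KO 1 to KO 3, groups that overlap (log2 fold change -0.073, adjusted p = 0.893). Since the conditional allele removes only part of the gene, this gene-level value does not check the deletion.

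The marrow of the 2 groups also differed in markers of cell types. Summed over 10 neutrophil markers, FPKM ranged from 6674 to 93719 in the WT libraries and from 91.4 to 282 in the KO libraries, and all 10 were lower in KO. Monocyte and macrophage markers summed to 648 to 5095 in WT and 22.8 to 32.1 in KO, with 5 of 7 tested markers lower, and Csf1r and Adgre1 were under 1 FPKM in every KO library. B cell markers summed to 14.9 to 1020 in WT and 1.99 to 2.68 in KO (1 of 5 tested was lower), and 7 of 8 were under 1 in every KO library. The 10 T cell markers summed to 770 to 1716 in WT and 948 to 1102 in KO, where the ranges overlap, and 1 (Cd5) passed the test, lower in KO. For 10 erythroid markers the sums were 159 to 68092 in WT, with WT 2 the highest, and 72.8 to 174 in KO, and 1 of 8 tested was called, higher. The sums of 7 NK cell markers were 623 to 1257 in WT and 581 to 648 in KO (1 of 6 tested was higher and 5 were lower). Gzma alone was at 12.9 to 50.8 in WT and 566 to 615 in KO, and the other 6 NK cell markers summed to 610 to 1206 in WT and 14.6 to 32.1 in KO. The sums of 6 megakaryocyte and platelet markers were 7.15 to 62.0 in WT and 1.28 to 1.93 in KO (0 of 3 tested were called), with Ppbp at 0 in every KO library. A list of 16 proliferation genes summed to 214 to 489 in WT and to 585 to 916 in KO, and 5 of the 16 were called, all higher. Without WT 2, 15 of the 16 were called, all higher. Over all genes tested 26.4% were called, and 52% without WT 2. Of tested markers, 10 of 10 neutrophil, 5 of 7 monocyte and macrophage and 2 of 3 megakaryocyte and platelet markers were then lower. B cell markers then gave 1 higher and 4 lower of 5, and T cell markers 3 and 3 of 10. Erythroid markers gave 2 higher and 2 lower of 8, and NK cell markers 1 and 5 of 6. The part of cell composition and of proliferation in the results below was not tested, and in bulk RNA a change in the number of cells of a type and a change in RNA per cell cannot be told apart.

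With all 6 libraries, 2 of the 40 genes were higher in Phf6 KO (Taf1c of the Pol I machinery and Wdr12 of large subunit assembly) and 0 were lower. Over all 13393 genes tested, 26.4% were called, 13.1% higher and 13.3% lower. At an unadjusted p under 0.05 the count was 6 of 40, beside 5018 of all 13393 genes tested. With voom on the recovered reads 2 were higher and 0 lower, where 24.8% of all genes were called. The median log2 fold change of the 40 genes was 0.13, beside 0.086 for all genes tested, and the values ran from -0.75 for Bysl to 1.85 for Wdr12, with 23 above 0 and 17 below. Differences of less than 1.5-fold were found for 31 of the 40 genes (45.9% of all genes tested). An adjusted p that misses the threshold does not show that a gene was at the same level in both groups. The 95% interval of the difference lay within a log2 fold change of 1 in either direction for 14 of the 40 genes (18.1% of all genes).

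**Figure D1:**
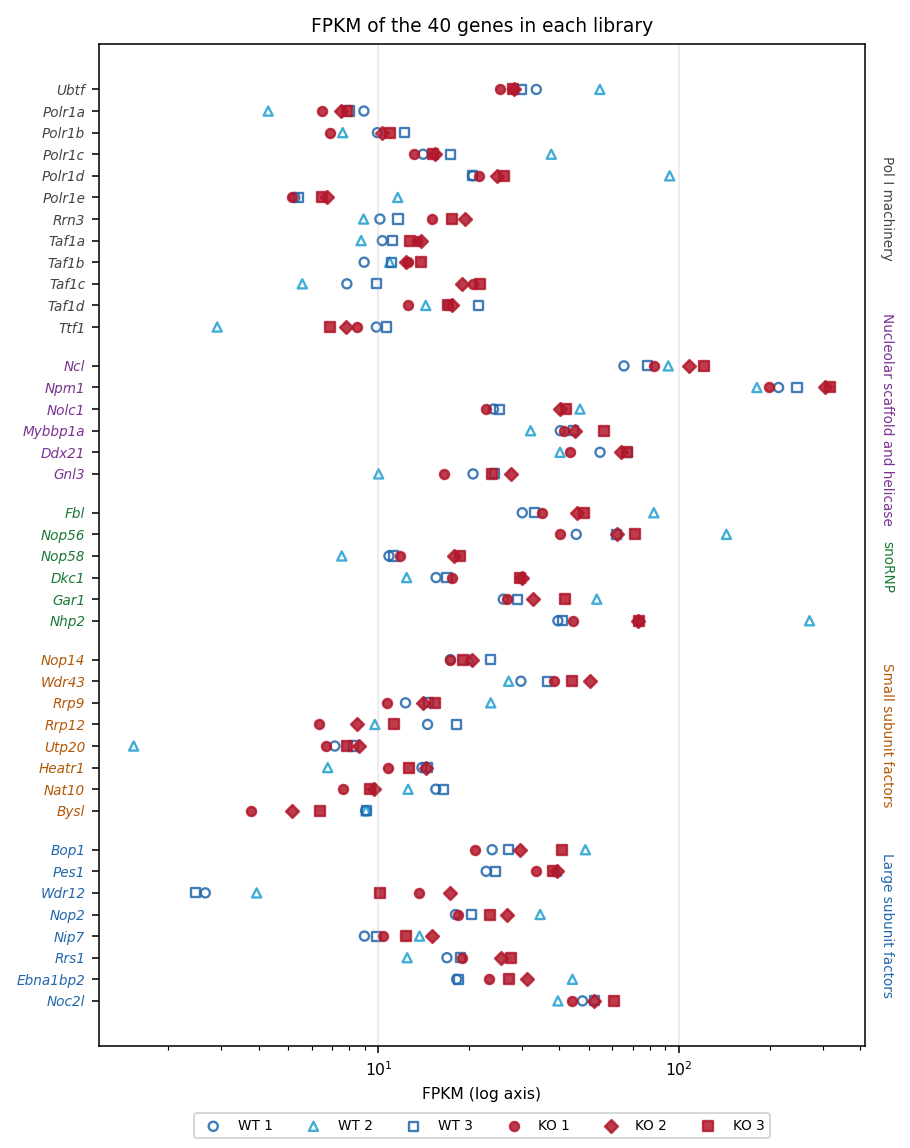
FPKM of the 40 genes on a log axis, with genes grouped by role and each library drawn as its own symbol (open for WT, filled for KO). The KO symbols lie to the right of the WT symbols for Taf1c and Wdr12, while WT 2 lies far from WT 1 and WT 3 for genes such as Nhp2, Polr1d and Utp20.

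The groups did not overlap for 12 of the 40 genes (49.1% of all genes tested). They were 9 genes higher in every KO library than in any WT library, namely Rrn3, Taf1a, Taf1b, Taf1c, Nop58, Dkc1, Wdr43, Wdr12 and Rrs1 (26.2% of all genes), and 3 genes lower in every KO library, namely Ubtf, Nat10 and Bysl (22.9%). Without WT 2, 8 of the 40 genes were called, where 52% of all genes were. Higher in KO were then Rrn3, Taf1c, Pes1, Wdr12 and Ebna1bp2, and lower were Rrp12, Nat10 and Bysl. The median over the 40 genes was then 0.21, beside 0.040 for all genes, and the interval of the difference lay within 1 for 30 of them (44.3% of all genes). Leaving out KO 1, KO 2 or KO 3 instead left 1 gene called, Wdr12, of the 2, where 14.4% to 15.5% of all genes were called. With array weights, which gave WT 2 the smallest weight, 15 were higher and 3 lower, where 63.2% of all genes were called.

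**Figure D2:**
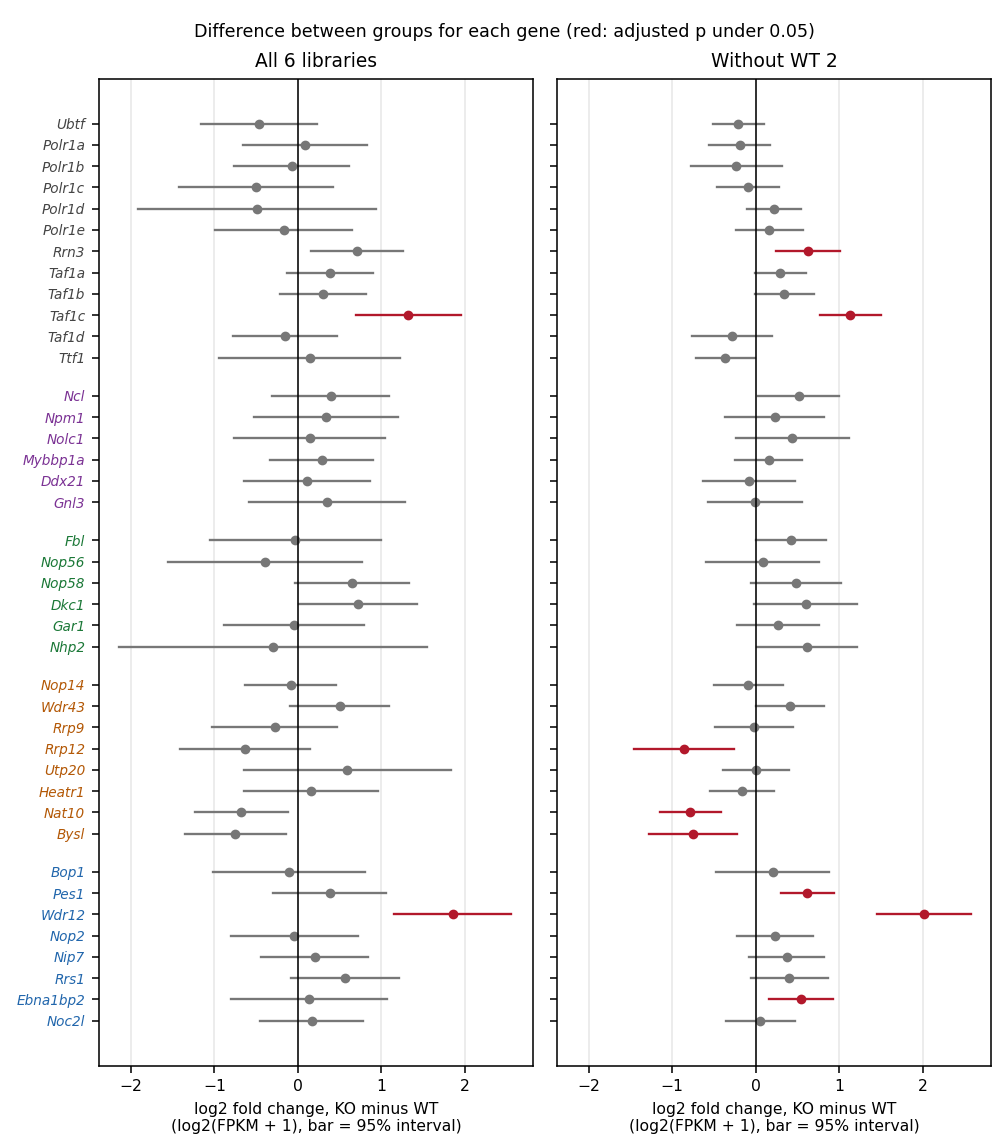
Log2 fold change of each gene, KO minus WT, on the log2(FPKM + 1) scale, with bars for the 95% interval, from all 6 libraries on the left and without WT 2 on the right, where red marks an adjusted p under 0.05. With WT 2 left out the intervals shorten, most of all for Nhp2, Polr1d and Utp20, and 8 genes are red in place of 2.

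Among the 12 genes of the Pol I machinery, 1 was higher (Taf1c), 0 were lower and 11 did not pass the test. Over all genes tested, 26.4% were called. The median log2 fold change of the 12 genes was 0.0054. Ubtf (ENSMUSG00000020923, chr11:102304560-102319742, minus strand), the HMG-box protein that keeps rDNA open, was measured at 33.5, 54.5 and 29.9 FPKM in WT 1 to WT 3 and at 25.4, 28.3 and 28.1 in KO 1 to KO 3. Every KO library was below every WT library, but WT 2 lay far above the other WT libraries, and the log2 fold change of -0.46 (SE 0.29, 95% interval -1.16 to 0.23) was not called (adjusted p = 0.297). Without WT 2 the difference was -0.21 (-0.52 to 0.10, adjusted p = 0.205). Polr1a (ENSMUSG00000049553, chr6:71909053-71984935, plus strand) encodes the largest subunit, which carries the active site with Polr1b. Its FPKM was 8.94, 4.30 and 7.99 in WT 1 to WT 3 and 6.48, 7.53 and 7.86 in KO 1 to KO 3, and the KO values fell between WT 2, the lowest, and WT 1, the highest (log2 fold change 0.085, SE 0.31, adjusted p = 0.870). For Polr1b (ENSMUSG00000027395, chr2:129100995-129126594, plus strand) the values were 9.92, 7.61 and 12.2 in WT and 6.93, 10.3 and 10.9 in KO, with both groups spread over the same range (log2 fold change -0.074, SE 0.29, adjusted p = 0.878). The difference for Polr1a changed sign without WT 2, to -0.19 (-0.56 to 0.17). Of the subunits shared with Pol III, Polr1c had a log2 fold change of -0.50 and Polr1d one of -0.49. Polr1d, described for its spread after its values were seen, stood at 20.6, 93.00 and 20.6 FPKM in WT 1 to WT 3 and at 21.6, 24.8 and 26.2 in KO 1 to KO 3, so that the negative value rested on WT 2, and without it the value was 0.22. Polr1e, a subunit particular to Pol I, had a value of -0.17, also with WT 2 the highest library.

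Over the 12 genes of the Pol I machinery, every KO library was above every WT library for 4 and below for 1, beside 26.2% and 22.9% of all genes tested. Rrn3 (ENSMUSG00000022682, chr16:13780708-13814839, plus strand), the initiation factor that growth signals act on, was at 10.1, 8.92 and 11.6 FPKM in WT 1 to WT 3 and at 15.1, 19.5 and 17.5 in KO 1 to KO 3. All 3 KO libraries were above all 3 WT libraries, the log2 fold change was 0.71 (SE 0.23, 95% interval 0.16 to 1.26), and it missed the threshold with all libraries (adjusted p = 0.0652) but passed without WT 2 (0.62, adjusted p = 0.0184). Taf1c (ENSMUSG00000031832, chr8:119597871-119605222, minus strand), an SL1 subunit that contacts both RRN3 and the promoter, was at 7.85, 5.58 and 9.83 FPKM in WT 1 to WT 3 and at 20.6, 18.9 and 21.8 in KO 1 to KO 3, or 7.76 ± 2.13 and 20.5 ± 1.45 (mean ± SD, n = 3 each). The groups did not overlap, and the KO libraries lay within 3 FPKM of each other. Taf1c rose by 1.32 on the log2 scale (SE 0.26, 95% interval 0.69 to 1.95, adjusted p = 0.0125), and by 1.13 without WT 2 (adjusted p = 0.00198). It was called under 15 of 18 other settings. Of these, median-of-ratios scaling gave the same factor of 1.019 to every library and could change no call. The log2 fold limit of 1 kept the p-values of the main test, and the value of 1.32 already exceeded it. Leaving out any one KO library moved the adjusted p of Taf1c above the threshold, to at most 0.0667. Taf1c shares 456 bases with the pseudogene Rps13-ps4 on the same strand and 584 with Dnaaf1 on the other, and how the counting split such reads is not given in the sources used here, so its level is uncertain to that extent. Dnaaf1, too low to be tested, was at 0, 0.241 and 0 FPKM in WT 1 to WT 3 and at 0.818, 1.19 and 1.26 in KO 1 to KO 3. Rps13-ps4 was at 4.40, 4.66 and 3.68 in WT and at 6.59, 5.71 and 7.08 in KO. Both were thus higher in every KO library, as Taf1c was. Rps13-ps4 was not called with all libraries (log2 fold change 0.51, adjusted p = 0.1575) but was without WT 2 (0.57, adjusted p = 0.0288). Of the other SL1 subunits, Taf1a (0.38) and Taf1b (0.30) also had KO libraries above all WT libraries without passing the test, whereas Taf1d had a log2 fold change of -0.15 with overlapping groups. Ttf1, which ends Pol I transcription at the terminator repeats, had a value of 0.14 with all libraries and of -0.37 without WT 2, its lowest library.

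The promoter windows of Taf1c, Rrn3 and Wdr12 are shown because these genes stood highest in KO relative to WT in their roles, and that of Nop2 as a gene of the same list whose groups overlapped. Each runs from 250 bases before to 50 bases after the RefSeq start nearest the gene's annotated 5′ end, on GRCm38.p6, in the direction of transcription. Capitals mark the E-box CACGTG, the site known for Myc and Max, and the ETS core CGGAAG on either strand (CTTCCG where it lies on the other strand). Taf1c lies at chr8:119605157-119605456, minus strand, Rrn3 at chr16:13780449-13780748, plus strand, Wdr12 at chr1:60098451-60098750, minus strand and Nop2 at chr6:125131633-125131932, plus strand.
Taf1c: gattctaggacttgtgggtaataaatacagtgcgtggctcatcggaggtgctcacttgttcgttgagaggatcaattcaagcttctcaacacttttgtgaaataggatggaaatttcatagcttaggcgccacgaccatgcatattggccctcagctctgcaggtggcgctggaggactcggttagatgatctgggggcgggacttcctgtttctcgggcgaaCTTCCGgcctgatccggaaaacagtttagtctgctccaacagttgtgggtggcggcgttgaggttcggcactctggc
Rrn3: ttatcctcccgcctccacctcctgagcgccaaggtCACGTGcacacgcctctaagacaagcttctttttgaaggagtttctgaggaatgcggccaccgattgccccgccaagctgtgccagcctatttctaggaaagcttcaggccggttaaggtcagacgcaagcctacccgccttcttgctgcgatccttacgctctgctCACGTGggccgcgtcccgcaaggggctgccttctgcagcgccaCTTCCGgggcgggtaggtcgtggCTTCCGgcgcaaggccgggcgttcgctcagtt
Wdr12: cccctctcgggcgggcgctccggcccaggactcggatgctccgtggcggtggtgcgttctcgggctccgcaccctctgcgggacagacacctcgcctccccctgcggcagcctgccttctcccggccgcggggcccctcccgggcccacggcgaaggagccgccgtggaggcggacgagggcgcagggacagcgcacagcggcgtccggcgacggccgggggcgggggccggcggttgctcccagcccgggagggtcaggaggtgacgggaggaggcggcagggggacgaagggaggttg
Nop2: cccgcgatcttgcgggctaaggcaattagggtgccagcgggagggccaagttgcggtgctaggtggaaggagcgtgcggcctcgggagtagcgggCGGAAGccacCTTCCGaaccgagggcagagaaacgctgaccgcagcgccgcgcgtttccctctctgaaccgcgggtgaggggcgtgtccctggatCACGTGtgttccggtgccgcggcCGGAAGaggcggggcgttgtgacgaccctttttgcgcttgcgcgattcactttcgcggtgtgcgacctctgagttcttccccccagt
The Taf1c window holds 1 ETS core, which starts at base -27 relative to the start, and no E-box. That of Rrn3 holds 2 E-boxes, at -215 and -48, and 2 ETS cores, at -5 and 18. The Wdr12 window holds neither, with a GC content of 78%, the nearest of 3 RefSeq windows of this gene, of which another holds an ETS core. Nop2 has 1 E-box at -60 and 3 ETS cores, and none of the marked motifs overlap one another in these windows. A match is a description of letters and not of binding.

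Windows were found for 35 of the 40 genes, all but Rrs1, Npm1, Rrp12, Fbl and Bop1. Taking all windows of a gene together, the E-box was present in 6 of 35 genes (17.1%), namely Mybbp1a, Nop2, Pes1, Rrn3, Utp20 and Wdr43, beside 11.96% of 8667 genes tested with a window and 8.09% of all 27025 genes with one. The ETS core was present in 21 of 35 (60%), beside 37.6% of genes tested and 18.8% of all genes. TATAAA on either strand was found in 2 of 35 (5.71%), Dkc1 and Pes1, beside 8.42% and 15.7%. Of the 6 genes with an E-box, 0 were called with all libraries (26.4% of all genes) and Rrn3 and Pes1 were called higher without WT 2 (26.8% of all genes).

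The 6 nucleolar scaffold proteins and helicases included the most abundant mRNAs of the list, and 0 of 6 were called, beside 26.4% of all genes tested. Their median log2 fold change was 0.31. Npm1, the histone chaperone nucleophosmin, also chosen after its values were seen, had the highest mean FPKM of the 40 genes in both groups, with 214, 181 and 247 in WT 1 to WT 3 and 199, 306 and 318 in KO 1 to KO 3 and a log2 fold change of 0.34. Its groups overlapped through KO 1, which lay below WT 1 and WT 3. Ddx21 (ENSMUSG00000020075, chr10:62580251-62602281, minus strand), an RNA helicase of the nucleolus, was at 54.5, 40.2 and 67.5 in WT and 43.5, 64.00 and 67.2 in KO, which covered the same range, with the smallest difference of this role (log2 fold change 0.11, SE 0.31, 95% interval -0.64 to 0.87, adjusted p = 0.830). Ncl (nucleolin, 0.39), Gnl3 (the GTP-binding protein nucleostemin, 0.35), Mybbp1a (0.28) and Nolc1 (a chaperone of snoRNPs, 0.14) had positive values that the test did not call. Gnl3, given here after its values were seen, was lowest in WT 2, at 10.01 FPKM, where the other libraries had 16.5 to 27.5, and its value without WT 2 was -0.014.

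Among the 6 snoRNP proteins 0 were called, beside 26.4% of all genes tested, with a median log2 fold change of -0.038. WT 2 was the highest library for 4 of the 6 and the lowest for the other two. Fbl (ENSMUSG00000046865, chr7:28169710-28179269, plus strand), the methyltransferase fibrillarin of the box C/D particles, was at 30.1, 82.4 and 33.1 FPKM in WT 1 to WT 3 and at 35.1, 45.8 and 48.1 in KO 1 to KO 3. The KO libraries lay above WT 1 and WT 3 and below WT 2, and the log2 fold change was -0.03 (SE 0.43, 95% interval -1.06 to 1.00, adjusted p = 0.968) with all libraries and 0.42 (0.0012 to 0.84, adjusted p = 0.0846) without WT 2. Nop56, a core protein of the same particles, had a value of -0.39. Nop58, its partner, had one of 0.64, with KO libraries above all WT libraries. In the H/ACA particles, Dkc1, the pseudouridine synthase dyskerin, had a log2 fold change of 0.72 (unadjusted p = 0.0468, adjusted p = 0.127) and non-overlapping groups, and Gar1 one of -0.045. Nhp2 had the smallest gene length of the list, at 1146 bases, and is described for its spread after its values were seen. It was at 39.5, 271 and 40.9 in WT 1 to WT 3 and 44.3, 72.99 and 73.3 in KO 1 to KO 3. WT 2 was thus the highest library by far, and the 95% interval of -2.15 to 1.55 was the widest of the 40 genes, while without WT 2 the difference was 0.61 (0.0085 to 1.21, adjusted p = 0.0820).

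The 8 small subunit factors held the 3 lowest log2 fold changes of the list, with a median of -0.18. With all libraries 0 were called, beside 26.4% of all genes tested. Without WT 2, 3 were called lower, where 25.3% of all genes were. Nop14 (ENSMUSG00000036693, chr5:34638536-34660148, minus strand), a processome protein, was the one nearest to 0, at 17.3, 20.1 and 23.5 FPKM in WT and 17.3, 20.4 and 19.1 in KO (log2 fold change -0.087, SE 0.23, 95% interval -0.63 to 0.46, adjusted p = 0.815). The next 3 genes were chosen after their values were seen. Bysl, needed for export and maturation of the small subunit, was at 9.06, 9.09 and 9.14 FPKM in WT 1 to WT 3 and at 3.76, 5.17 and 6.40 in KO 1 to KO 3. The WT libraries, WT 2 included, were close together and all above the KO libraries, and the log2 fold change of -0.75 had an adjusted p of 0.0746, or 0.0290 without WT 2. Bysl shares 361 bases with Ccnd3 on the other strand, and strand use in the counting is not given in the sources used here. Ccnd3 was at 47.0, 33.2 and 27.0 FPKM in WT 1 to WT 3 and at 27.6, 23.2 and 26.7 in KO 1 to KO 3 (log2 fold change -0.42, adjusted p = 0.321). The level of Bysl is uncertain to that extent. Nat10, which acetylates cytidines of the small subunit rRNA, was at 15.5, 12.5 and 16.4 in WT 1 to WT 3 and at 7.62, 9.65 and 9.38 in KO 1 to KO 3. Its KO libraries were below all WT libraries, with a log2 fold change of -0.68 (adjusted p = 0.0770) and of -0.78 without WT 2 (adjusted p = 0.00720). For Rrp12, a factor in export of both subunits, the values were 14.6, 9.73 and 18.1 in WT and 6.33, 8.49 and 11.3 in KO, where KO 3 lay above WT 2, and the log2 fold change was -0.63 (adjusted p = 0.209), or -0.86 without WT 2 (adjusted p = 0.0283). After rescaling to TPM, where the median of all genes moved to 0.86, the values of Nat10, Rrp12 and Ubtf changed sign, to 0.092, 0.13 and 0.36, and thus stayed below that median. Wdr43 (0.50), a processome protein, had KO libraries above all WT libraries without passing the test. Heatr1 (0.15), Utp20 (0.59) and Rrp9 (-0.28), also of the processome, had overlapping groups, and in Utp20 the value rested on WT 2, at 1.53 FPKM against 6.69 to 8.61 in the other 5 libraries. Rrp9 shares 987 bases with Parp3 on the other strand, a gene at 10.9 to 15.7 FPKM in WT and 1.72 to 2.45 in KO. Heatr1 shares 875 bases with Lgals8 on the other strand, at no more than 28.5 FPKM. The levels of Rrp9 and Heatr1 are uncertain to that extent. Further overlaps with genes on the other strand, counted over gene spans, include Pes1 (12804 bases), Polr1a (2631), Polr1e (2319), Bop1 (2007) and Nop14 (1760). In these overlaps the other gene was at no more than 3.63 FPKM in any library.

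Of the 8 large subunit factors 1 was higher in KO, Wdr12, 0 were lower (26.4% of all genes tested were called), and the median was 0.18. Wdr12 (ENSMUSG00000026019, chr1:60069785-60098645, minus strand) forms with Pes1 and Bop1 the PeBoW complex, which is needed to process the large subunit rRNA. It was at 2.66, 3.93 and 2.47 FPKM in WT 1 to WT 3 and at 13.6, 17.3 and 10.1 in KO 1 to KO 3, or 3.02 ± 0.799 and 13.7 ± 3.59 (mean ± SD, n = 3 each). Every KO library was above 10 FPKM and every WT library below 4. Wdr12 rose by 1.85 on the log2 scale (SE 0.29, 95% interval 1.15 to 2.55, adjusted p = 0.00523), the largest difference of the 40 genes, and by 2.01 without WT 2. It was called under all 18 other settings, of which median-of-ratios scaling and the log2 fold limit of 1 could not change its call. The adjusted p of Wdr12 ran from 6.50e-05 to 0.0400. Its gene overlaps Carf head to head over 399 bases on the other strand. Carf was at 0.725, 0.0467 and 0.842 FPKM in WT and 2.38, 1.87 and 1.82 in KO, lower than Wdr12 in every library, and it too was called higher (log2 fold change 1.01, adjusted p = 0.0342). Without strand, reads of the shared stretch cannot be told apart.

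The other PeBoW genes, Pes1 and Bop1, did not pass the test with all libraries. Pes1, chosen after its values were seen, was at 22.8, 39.2 and 24.6 FPKM in WT 1 to WT 3 and 33.5, 39.2 and 37.9 in KO 1 to KO 3, with WT 2 among the KO values. Its log2 fold change was 0.38 (adjusted p = 0.375) with all libraries and 0.62 (adjusted p = 0.00987) without WT 2. Bop1 had a value of -0.10, with WT 2 the highest library. Nop2 (ENSMUSG00000038279, chr6:125131909-125144753, plus strand), a methyltransferase of the large subunit rRNA, was at 18.04, 34.5 and 20.3 in WT and 18.4, 26.8 and 23.5 in KO, with WT 2 highest and the rest intermixed (log2 fold change -0.042, SE 0.32, 95% interval -0.81 to 0.72, adjusted p = 0.939). Ebna1bp2, likewise chosen after its values were seen, was at 18.2, 44.1 and 18.5 in WT 1 to WT 3 and 23.3, 31.3 and 27.1 in KO 1 to KO 3, and passed the test without WT 2 (0.54, adjusted p = 0.0303) but not with it (0.13, adjusted p = 0.842). Rrs1 (0.56), which helps to load the small rRNA of the large subunit, had KO libraries above all WT libraries, and Nip7 (0.20) and Noc2l (0.16) had overlapping groups.

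WT 2 was the highest of the 6 libraries for 13 of the 40 genes and the lowest for 16, beside 30.2% and 38.3% of all genes tested. Its deviation from the mean of WT 1 and WT 3 was set against gene length. Among 12 genes under 3000 bases the median deviation was 0.45 on the log2(FPKM + 1) scale, among 17 of 3000 to 6000 bases -0.0010, and among 11 over 6000 bases -0.49. All genes tested had medians of 0.30, -0.062 and -0.74 in the same ranges. Across the 40 genes, which share the same 3 libraries, Pearson's r with log2 length was -0.52 and Spearman's rho -0.49 (n = 40), and across 137 further ribosome biogenesis genes -0.58 and -0.55. Across all 13393 genes tested they were -0.040 and -0.24. Long genes that were low in WT 2 were Utp20 (10199 bases, deviation -1.78) and Ttf1 (6023 bases, -1.52), and short genes that were high in it were Nhp2 (1146 bases, 2.72) and Polr1c (2278 bases, 1.21). Exceptions were 3 of the 11 genes over 6000 bases, Ubtf, Wdr12 and Ncl, with 0.76, 0.47 and 0.36, and 5 of the 12 genes under 3000 bases, which lay below 0. With the length trend removed from each library, 3 of the 40 genes were called higher and 1 lower, where 29.8% of all genes were called.

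**Figure D3:**
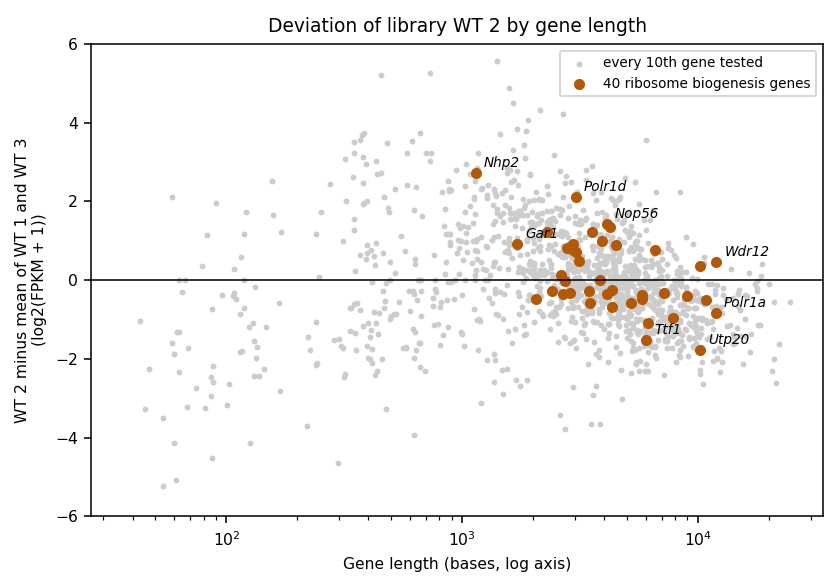
Deviation of WT 2 from the mean of WT 1 and WT 3, on the log2(FPKM + 1) scale, against gene length on a log axis, for the 40 genes (brown) and every 10th gene tested (grey). The brown points fall from Nhp2 at 1146 bases and 2.72 to Utp20 at 10199 bases and -1.78.

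Libraries of the same group also differed from each other over most of the 40 genes. KO 1 was the lowest KO library for 35 of 40 genes (35.5% of all genes tested). The ratio of KO 1 to the mean of KO 2 and KO 3 had a median of 0.766 over the 40 genes, with a range from 0.556 to 1.16, whereas the median over all genes was 0.998. All genes of the scaffold, snoRNP and small subunit roles had KO 1 as the lowest KO library, and of the Pol I machinery 8 of 12 did. WT 3 was above WT 1 for 37 of 40 genes (48.6% of all genes), with a median ratio of 1.11 beside 0.996. The proliferation genes followed the first difference and not the other, with KO 1 the lowest KO library in 16 of 16 and WT 3 above WT 1 in 0 of 16. Neither difference was tested, since each sets single libraries against each other.

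**Figure D4:**
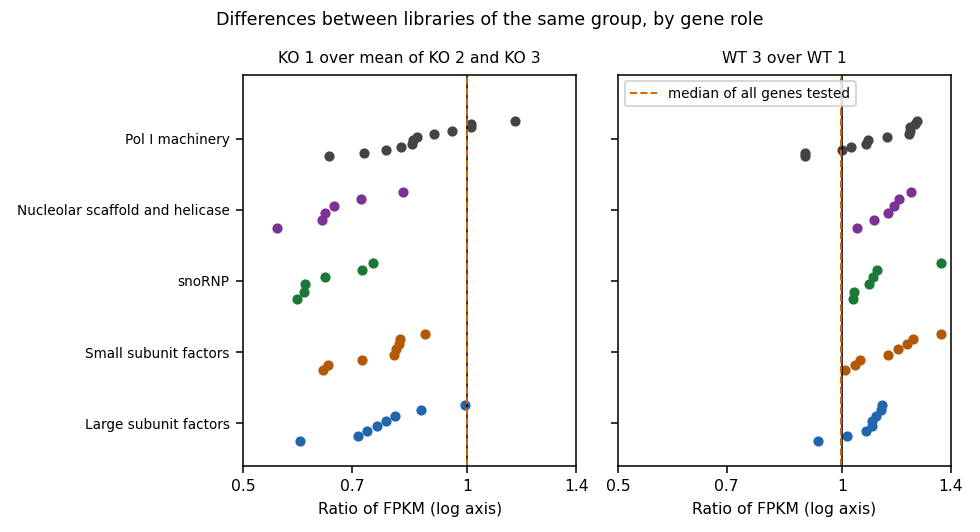
Ratio of FPKM between libraries of one group for each of the 40 genes, by role, with KO 1 over the mean of KO 2 and KO 3 on the left and WT 3 over WT 1 on the right, on log axes where the dashed line is the median of all genes tested. On the left nearly all points lie below 1, around a median of 0.766, and on the right most lie above 1, around 1.11.

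As a share of all reads, the 40 genes together took 0.449%, 0.379% and 0.537% in WT 1 to WT 3 and 0.527%, 0.737% and 0.729% in KO 1 to KO 3. KO 2 and KO 3 were above all WT libraries, and KO 1 lay below WT 3. Ribosomal protein genes took 13.6, 65.7 and 14.7 times as many reads as the 40 genes in WT 1 to WT 3, and 10.9, 9.18 and 8.51 times in KO 1 to KO 3. All 3 KO ratios were thus below all 3 WT ratios, with WT 2 far above the rest. Large subunit factors took 0.0488%, 0.0480% and 0.0556% in WT and 0.0765%, 0.102% and 0.0910% in KO, without overlap, while small subunit factors took 0.0581%, 0.0293% and 0.0701% in WT and 0.0536%, 0.0723% and 0.0658% in KO, with overlap. The large subunit shares include Wdr12, the only called gene of that role, with 490, 553 and 457 recovered reads in WT and 3028, 3250 and 1943 in KO.

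Some of the 40 genes carry snoRNA genes inside them. snoRNAs, the guide RNAs of the snoRNPs, are commonly cut from introns of host genes. An annotated snoRNA gene lay within 7 of the 40 genes (17.5%), on the same strand, and within 204 of 10388 protein-coding genes tested (1.96%). The hosts were Taf1d with 8, Nop56 with 5, Nop58 with 4, Gnl3, Ncl and Wdr43 with 3 each, and Dkc1 with 1. None of the 7 hosts was called with all libraries, beside 26.4% of all genes tested. Their log2 fold changes ran from -0.39 for Nop56 to 0.72 for Dkc1.

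Besides the 40 genes, lists of 140 further genes of Pol I and rDNA chromatin, snoRNPs, subunit assembly and the RNA exosome were read, of which 137 were tested. Of these, 4 were higher in KO, 0 were lower, and the median log2 fold change was 0.13, beside 26.4% called and a median of 0.086 over all genes. The RNA exosome, the 3′ to 5′ nuclease that trims rRNA precursors, gave 2 of the 4, its cofactor C1d (7.14, 8.50 and 6.20 FPKM in WT and 13.3, 15.5 and 13.4 in KO, log2 fold change 0.87, adjusted p = 0.0331) and its subunit Exosc9 (3.74, 3.94 and 3.53 in WT and 6.27, 7.31 and 7.22 in KO, 0.74, adjusted p = 0.0474). The groups overlapped in neither. The other two were Dcaf13 of the processome (4.70, 4.54 and 4.34 in WT and 8.56, 12.02 and 10.1 in KO, 1.01, adjusted p = 0.0206) and Urb2 of large subunit assembly (4.53, 1.45 and 5.10 in WT and 9.30, 10.7 and 9.88 in KO, 1.33, adjusted p = 0.0482). By list, 0 of 16 Pol I and rDNA chromatin genes, 0 of 10 snoRNP genes, 1 of 45 small subunit genes, 1 of 50 large subunit genes and 2 of 16 exosome and nuclease genes were called. Without WT 2, 39 of the 137 were higher and 7 lower, beside 26.8% and 25.3% of all genes. Exosc6, Wdr74 and Cavin1 were too low to be tested, and the annotation places Exosc6 and nearly all of Wdr74 inside another gene on the same strand.

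**Figure D5:**
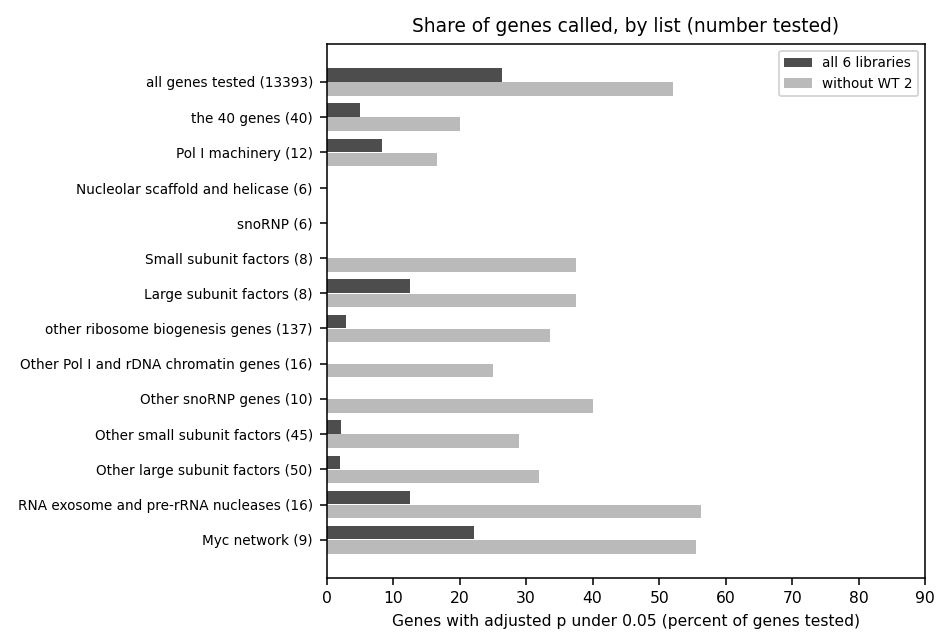
Percent of the genes tested in each list with an adjusted p under 0.05, with all 6 libraries (dark bars) and without WT 2 (light bars), where the number tested stands beside each name. The dark bar is 26.4% for all genes and 5.0% for the 40 genes, and the light bars are 52% and 20.0%.

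Myc is known to drive ribosome biogenesis genes, and the list of the Myc network also holds genes that oppose it. In this list 1 of 9 genes tested was higher and 1 was lower, beside 13.1% and 13.3% of all genes tested. Myc (ENSMUSG00000022346, chr15:61985391-61990374, plus strand) was at 30.4, 45.1 and 53.3 FPKM in WT 1 to WT 3 and 64.8, 79.1 and 126 in KO 1 to KO 3, so that all KO libraries were above all WT libraries. The log2 fold change was 1.03 (SE 0.36) and missed the threshold with all libraries (adjusted p = 0.0838), and passed it without WT 2 (1.08, adjusted p = 0.0434). Of the 9 genes, 3 were then higher and 2 lower, beside 26.8% and 25.3% of all genes. The 2 genes called with all libraries encode partners of Max that oppose Myc. Mxd4 was higher (13.8, 10.4 and 14.7 in WT and 53.2, 39.7 and 33.3 in KO, log2 fold change 1.61, adjusted p = 0.00710), and Mxd1 was lower (88.5, 37.4 and 25.2 in WT and 6.54, 3.92 and 5.36 in KO, -2.86, adjusted p = 0.00656). Mycn was too low to be tested.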

How the data were processed

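Total RNA from bone marrow was sequenced as paired reads on an Illumina NovaSeq, in 6 libraries, 3 a group. Whether cells were sorted first is not stated in the labels. Per the labels, the authors used HISAT2 2.0.5 and featureCounts 1.5.0-p3 with GRCm38 (mm10), and the deposited table holds FPKM per gene. Neither the annotation release nor a strand setting is given in the sources used here. Gene coordinates were identical to GENCODE M21 for 53548 of 54495 matched genes and for 38 of the 40 genes, all but Wdr43 and Rrp12.

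FPKM times gene length gave whole reads for 100% of values (tolerance 0.01), between 13015823 and 18235095 a library. The size that turns reads into FPKM differed from these totals, most in WT 2 (18235095 reads against 11756000), so the deposited FPKM already carry a scaling between libraries. Depth limits counting error only. Genes that reached an FPKM of 1 in 3 or more of the 6 libraries (13393 of 54532) were tested with limma 3.58.1 (lmFit, eBayes with trend, two-sided) on log2(FPKM + 1) in R 4.3.3, and p-values were adjusted over all of them by Benjamini and Hochberg, with a threshold of 0.05. Fold changes on this scale understate the change of low genes. An exact permutation test of 3 against 3 cannot go below 0.1 and was not used. Before use, the fit was tested on simulated data in which all 6 libraries of a gene shared the same spread. Such data hold no library that stands apart as WT 2 does.

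The 40 genes, their roles and the further lists were chosen with earlier results of these data known. Values in every library and full statistics are given for Ubtf, Rrn3, Polr1a and, in each role, for up to 2 called genes with the largest and the 1 gene with the smallest absolute change. Others were chosen after their values were seen, which the text says. Promoter windows of 300 bases came from RefSeq on GRCm38.p6. Alternatives were pseudocount 0.1, other filters, median-of-ratios, quantile and TPM scaling, removal of a length trend, voom on recovered reads, array weights, eBayes without trend, a fold limit, a replicate block, and leaving out each library. Scripts used Python 3.11.15 with pandas 2.3.3, SciPy 1.17.1 and Matplotlib 3.10.9. rRNA itself was not analysed here.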

Additional observations from a re-analysis of the deposited data

How the results depend on the processing

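The call of Wdr12 held under all 18 alternatives, and that of Taf1c under 15, all but leaving out KO 1, KO 2 or KO 3. Median-of-ratios scaling, 1 of the 18, gave every library the factor 1.019, so it could change no call and says nothing about stability. The log2 fold limit of 1, another of the 18, kept the p-values of the main test and could only remove calls. Wdr12 (1.85) and Taf1c (1.32) were above that limit from the outset, so it says nothing about their stability either. Over the 40 genes and 18 alternatives, 720 values were computed, of which 611 kept their direction and side of the threshold, 26 passed it only under the alternative, 3 no longer passed it and 80 changed sign, in 24 genes. TPM gave 16 of the sign changes and voom 11, and both moved the median of all genes, to 0.86 and 0.56, so those say nothing about the 40 genes apart from other genes. Of the sign changes, 2 came with a call, both with array weights, which gave WT 2 a weight of 0.0509 (Nhp2, adjusted p = 0.0327, and Fbl, adjusted p = 0.0227).

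Of all genes, 3539 were called, 1837 with a mean FPKM of at least 5 and 8461 with array weights, and leaving out 1 library gave 1934 to 6967, the highest without WT 2. Of the 40 genes, 2 were higher and 0 lower. Quantile normalization gave 5 higher, array weights 15 higher and 3 lower, and removal of the length trend 1 lower, while leaving out 1 library gave 1 to 5 higher and 0 to 3 lower. Their median log2 fold change of 0.13 became 0.35 with quantile normalization, 0.95 with TPM and 0.55 with voom, where the medians of all genes were 0.15, 0.86 and 0.56, and higher genes made up 67.8% of calls with TPM and 60.0% with voom, against 49.6%. Of the 150 further genes, the Myc network included, 5 were higher and 1 lower. The higher count was 3 without a filter, with a mean FPKM of at least 5 or with a log2 fold limit of 1, 19 with quantile normalization, 15 with TPM (and 0 lower), 14 with the length trend removed, 13 with voom, and 63 with array weights (and 15 lower), and leaving out 1 library gave 1 to 42 higher and 1 to 9 lower. The causes of these changes were not tested.

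The main test did not pair libraries by replicate number. The correlations of same-numbered deviations from the group means were 0.0954, 0.105 and -0.153, and not every library correlated best with its own number. With 3 libraries a group, WT 2 among them, these values cannot exclude a pairing. With the replicate block, 2676 genes were called, of the 40 genes 2 higher and 0 lower, and of the 150 further genes 1 higher.

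These log2 fold changes had a sign opposite to the one with all 6 libraries. With array weights, the value was 0.67 for Nhp2, 0.28 for Nop56, 0.49 for Fbl, 0.33 for Gar1, 0.22 for Polr1d, 0.29 for Bop1, 0.34 for Nop2, 0.088 for Nop14, 0.017 for Polr1c, 0.093 for Rrp9, -0.10 for Heatr1, -0.32 for Ttf1, -0.22 for Polr1a and 0.20 for Polr1e. With the length trend removed, the value was 0.035 for Fbl, 0.24 for Gar1, 0.067 for Bop1, 0.14 for Nop2, 0.10 for Nop14 and -0.21 for Polr1a. After quantile normalization, the value was 0.34 for Nhp2, 0.15 for Nop56, 0.38 for Fbl, 0.29 for Gar1, 0.19 for Bop1, 0.19 for Nop2 and 0.054 for Nop14. After rescaling to TPM, the value was 0.54 for Nhp2, 0.44 for Nop56, 0.81 for Fbl, 0.79 for Gar1, 0.34 for Polr1d, 0.36 for Ubtf, 0.73 for Bop1, 0.79 for Nop2, 0.73 for Nop14, 0.31 for Polr1c, 0.65 for Taf1d, 0.53 for Rrp9, 0.092 for Nat10, 0.13 for Rrp12, 0.72 for Polr1b and 0.62 for Polr1e. With voom, the value was 0.13 for Nhp2, 0.022 for Nop56, 0.39 for Fbl, 0.37 for Gar1, 0.31 for Bop1, 0.37 for Nop2, 0.32 for Nop14, 0.24 for Taf1d, 0.12 for Rrp9, 0.33 for Polr1b and 0.22 for Polr1e. Leaving out 1 library gave a range of -0.026 to 0.44 for Nolc1, -0.081 to 0.54 for Ebna1bp2, -0.76 to 0.61 for Nhp2, -0.73 to 0.084 for Nop56, -0.084 to 0.30 for Ddx21, -0.29 to 0.42 for Fbl, -0.24 to 0.27 for Gar1, -0.84 to 0.22 for Polr1d, -0.34 to 0.20 for Bop1, -0.22 to 0.23 for Nop2, -0.014 to 0.58 for Gnl3, -0.17 to 0.33 for Heatr1, -0.37 to 0.42 for Ttf1, -0.19 to 0.26 for Polr1a, -0.34 to 0.16 for Polr1e, -0.0014 to 0.93 for Utp20, -0.19 to 0.019 for Nop14 and -0.23 to 0.11 for Polr1b.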
